A study of Mus musculus with 87 samples.

Results

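The genes described here are 6 surface molecules through which a cell speaks to T cells and phagocytes: Cd274 (PD-L1), Pdcd1lg2 (PD-L2), Cd80 (B7-1), Cd86 (B7-2), Cd40 and Cd47. They were taken by their symbols from the table of sorted nuclei and from the table of single nuclei, and all 6 were found among the 48526 genes of each. They were chosen by name, not by a cut on measured values, but with earlier results of these data known. Nuclei came from the ventral midbrain of wild-type C57BL/6J mice of 6 to 12 months, male and female, which received bilateral stereotaxic injections of 400 nL of saline or of 40 ng of recombinant mouse IFN-γ in the same volume. In the first experiment nuclei were sorted by the neuronal antigen NeuN at 6, 24, 48 and 72 h into NeuN+ (mostly neurons) and NeuN- (mostly glia) wells, and 84 wells were sequenced. In each fraction there were 6 IFN-γ wells at every time, and 4, 6, 4 and 4 saline wells at 6, 24, 48 and 72 h. In the second experiment single nuclei, enriched for NeuN+, were profiled at 48 h from 1 saline mouse and 2 IFN-γ mice, 4699 nuclei in all. Every group had the same wild-type genotype, so the design compares treatment, time and sorted fraction.

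GEO's label calls every well NeuN+. The fraction was taken from the well list published with the study, which gives 42 NeuN- and 42 NeuN+ wells and the labelled treatment and time for all 84. Markers separated the wells in the same way: the summed level of a neuron list ran from 106 to 710 CPM (a gene's counts as a share of all counts of the well, on the usual scale) over single NeuN- wells and from 4142 to 5352 CPM over single NeuN+ wells. NeuN- wells were shallow, with 20962 to 301445 counts per well, against 277113 to 1684374 in NeuN+ wells. The wells of a group came from a few mice, which wells shared a mouse is not stated, and each time had its own mice, so p-values measure the spread between wells and a difference between times cannot be told apart from a difference between mice. In bulk wells, fewer cells of a type and less RNA per cell cannot be told apart either. The class names of the nuclei are those of clusters built from the counts, and 536 nuclei were left unnamed. Median depth was 14646 UMIs (unique molecular identifiers, 1 per captured RNA) per nucleus in the saline mouse and 9404 and 11767 in the IFN-γ mice, and no cell barcode was shared between mice.

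T cells that recognise a peptide on MHC class I or II need a further signal from the presenting cell. CD80 and CD86 give it through CD28 and withdraw it through CTLA-4, while PD-L1 and PD-L2 restrain the T cell through PD-1. CD40 is not a ligand but the receptor that T cells engage through CD40 ligand to license antigen-presenting cells, and CD47 binds SIRPα on phagocytes to hold back engulfment. In the brain, CD86 and CD40 are known from microglia and macrophages, and IFN-γ is a textbook inducer of PD-L1 in many cell types through JAK1, JAK2 and IRF1.

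In the GRCm38 annotation used here (Gencode vM21) Cd274 lies on chromosome 19 (chr19:29367455-29388095, plus strand) and Pdcd1lg2 22.824 kb beyond it on the same strand (chr19:29410919-29471161). Jak2, whose kinase acts below the IFN-γ receptor, lies 54.375 kb before Cd274 (chr19:29251828-29313080). Cd86 (chr16:36603869-36666081, minus strand), Cd80 (chr16:38455561-38496335, plus strand) and Cd47 (chr16:49800533-49915010, plus strand) lie on chromosome 16 and Cd40 (chr2:165055627-165072948, plus strand) on chromosome 2. The tables list them as ENSMUSG00000016496.7 (Cd274), ENSMUSG00000016498.9 (Pdcd1lg2), ENSMUSG00000075122.4 (Cd80), ENSMUSG00000022901.13 (Cd86), ENSMUSG00000017652.16 (Cd40) and ENSMUSG00000055447.18 (Cd47). An antisense gene overlaps Cd274, AC119228.1, and another overlaps Pdcd1lg2, and whether the counting used strand is not given in the sources used here. The start regions of Cd274, Pdcd1lg2 and Cd47 are shown because the first changed most, its neighbour was hardly counted and the last was counted in every well. Each is the window from 250 bases before to 50 bases after the RefSeq start on GRCm38.p6, 5′ to 3′ on the plus strand, with each GAAA or TTTC, the core of interferon-response elements on either strand, in capitals. They cover chr19:29367188-29367487, chr19:29410669-29410968 and chr16:49855404-49855703.
Cd274: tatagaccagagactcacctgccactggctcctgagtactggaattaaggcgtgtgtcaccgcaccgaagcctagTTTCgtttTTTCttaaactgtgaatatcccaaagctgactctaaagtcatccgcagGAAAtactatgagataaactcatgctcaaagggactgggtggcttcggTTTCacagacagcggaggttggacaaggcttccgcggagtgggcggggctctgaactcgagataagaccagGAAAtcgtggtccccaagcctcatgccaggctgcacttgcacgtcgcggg
Pdcd1lg2: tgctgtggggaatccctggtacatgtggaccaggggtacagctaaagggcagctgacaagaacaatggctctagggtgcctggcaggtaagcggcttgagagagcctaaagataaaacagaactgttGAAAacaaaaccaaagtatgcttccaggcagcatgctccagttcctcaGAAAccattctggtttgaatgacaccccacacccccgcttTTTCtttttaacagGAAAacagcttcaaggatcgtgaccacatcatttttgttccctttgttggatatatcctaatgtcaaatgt
Cd47: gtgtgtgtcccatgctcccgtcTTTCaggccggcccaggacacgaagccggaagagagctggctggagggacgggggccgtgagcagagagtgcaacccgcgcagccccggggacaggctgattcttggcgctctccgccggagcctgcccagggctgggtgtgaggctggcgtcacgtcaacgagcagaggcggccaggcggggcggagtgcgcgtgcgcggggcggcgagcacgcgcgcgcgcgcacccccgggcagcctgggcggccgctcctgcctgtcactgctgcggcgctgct
The windows of Cd274 and Pdcd1lg2 held 5 and 4 of these 4-letter matches and that of Cd47 held 1, against a median of 3 over 32851 windows. The Cd274 window held 15 CG pairs, that of Pdcd1lg2 3 and that of Cd47 35, against a median of 7. The letters TTCNNNGAA, the STAT core, were in 8.30% of all windows, and GAAA repeated after any 2 letters on either strand in 3.44%, and neither was in these windows. A match describes letters only, and no factor binding was measured.

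Cd274 was the member with the largest response. Its counts rose in both fractions at 6 and 24 h and were far lower in both at 48 and 72 h. In NeuN- wells at 6 h the 4 saline wells held 0, 42.8, 0 and 9.55 CPM, and the 6 IFN-γ wells ran from 464 through a median of 529 to 650.0 CPM. At 24 h the 6 saline wells ran from 0 through 5.51 to 29.7 CPM and the 6 IFN-γ wells from 321 through 358 to 501 CPM. No IFN-γ well came near a saline well at either time, a lack of overlap that 2.19% of genes with a count showed at 6 h and as many at 24 h, although the shallowest IFN-γ well held only 10 Cd274 counts. The log2 fold change by edgeR's quasi-likelihood test, with Benjamini-Hochberg adjustment over all genes tested, was 5.28 (SE 0.33, adjusted p = 9.4e-16) at 6 h and 5.08 (SE 0.37, adjusted p = 3.7e-12) at 24 h. Each SE in this text is the size of the fold change divided by the square root of the test's F statistic. It is not a directly estimated error and can be smaller than the counting error. The saline wells held only 6 and 5 Cd274 counts at these times, and the pooled intervals given below are wider. By fold change Cd274 ranked 12 of 2660 genes tested at 6 h and 11 of 1883 at 24 h. A gene was called where its log2 fold change passed 1 at an adjusted p below 0.01. Of 3 members tested at 6 h 2 were called higher, Cd274 and Cd86, against 7.86% of all genes tested, and at 24 h 1 of 2, Cd274, against 7.22%.

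At 48 and 72 h Cd274 had too few counts in NeuN- wells for that test. At 48 h the saline wells held 0, 0, 9.83 and 0 CPM and the IFN-γ wells 38.6 to 114 with a median of 64.5 CPM. At 72 h the saline wells held 0, 0, 0 and 6.61 CPM and the IFN-γ wells 9.54 to 54.4 with a median of 42.4 CPM. Every IFN-γ well still lay above every saline well at both times, as did 1.04% and 0.851% of genes with a count at these times. The difference of mean log2(CPM + 1) was 5.20 at 48 h and 4.24 at 72 h, each with p = 0.00952 by a two-sided exact permutation test over wells, the smallest p that 6 against 4 wells allow. That test was run for each member, fraction and time, 48 times, unadjusted, and 17 had p below 0.05. Counts pooled over the wells gave ratios of IFN-γ to saline of 43.8 (95% interval 19.97 to 120.1, counting error only) at 6 h, 40.2 (17.1 to 125) at 24 h, 33.0 (5.63 to 1332) at 48 h and 19.8 (3.30 to 807) at 72 h. The last 2 rest on 1 saline count each. Averaged over the 4 times in 1 fit, the log2 fold change was 5.03 (SE 0.24, edgeR adjusted p = 1.1e-25), a call that 2.93% of genes shared.

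In NeuN+ wells Cd274 also rose at 6 and 24 h, and it overlapped saline at 72 h. At 6 h the saline wells held 3.61, 1.17, 5.05 and 2.15 CPM and the IFN-γ wells 72.4 to 97.9 with a median of 82.2 CPM. At 24 h the saline wells held 0.802 to 2.05 with a median of 1.52 CPM and the IFN-γ wells 67.2 to 90.4 with a median of 74.8 CPM. The groups were widely apart at both times, with log2 fold changes of 4.79 (SE 0.27, adjusted p = 1.2e-14) and 5.62 (SE 0.22, adjusted p = 1.6e-16) by edgeR. Cd274 was 1 of 2 members tested at each time and the only one of them called, beside 1.08% and 1.47% of all genes called higher. At 48 h the saline wells held 1.99, 2.46, 0.841 and 1.54 CPM and the IFN-γ wells 2.64 to 9.02 with a median of 7.04 CPM, again without overlap (0.578% of genes with a count), a difference of 1.40 on the log2(CPM + 1) scale (p = 0.00952, exact permutation test). At 72 h the saline wells held 0, 4.62, 1.84 and 1.59 CPM and the IFN-γ wells 1.91 to 6.63 with a median of 4.34 CPM, so the groups overlapped (difference 0.93, p = 0.0857, exact permutation test). The pooled ratio was 29.9 (15.1 to 69.5), 51.2 (28.4 to 103), 3.55 (1.58 to 9.39) and 1.96 (0.876 to 4.97) from 6 to 72 h, and the log2 fold change averaged over the 4 times was 4.49 (SE 0.23, edgeR adjusted p = 3.4e-22, 0.952% of genes called higher).

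**Figure D1:**
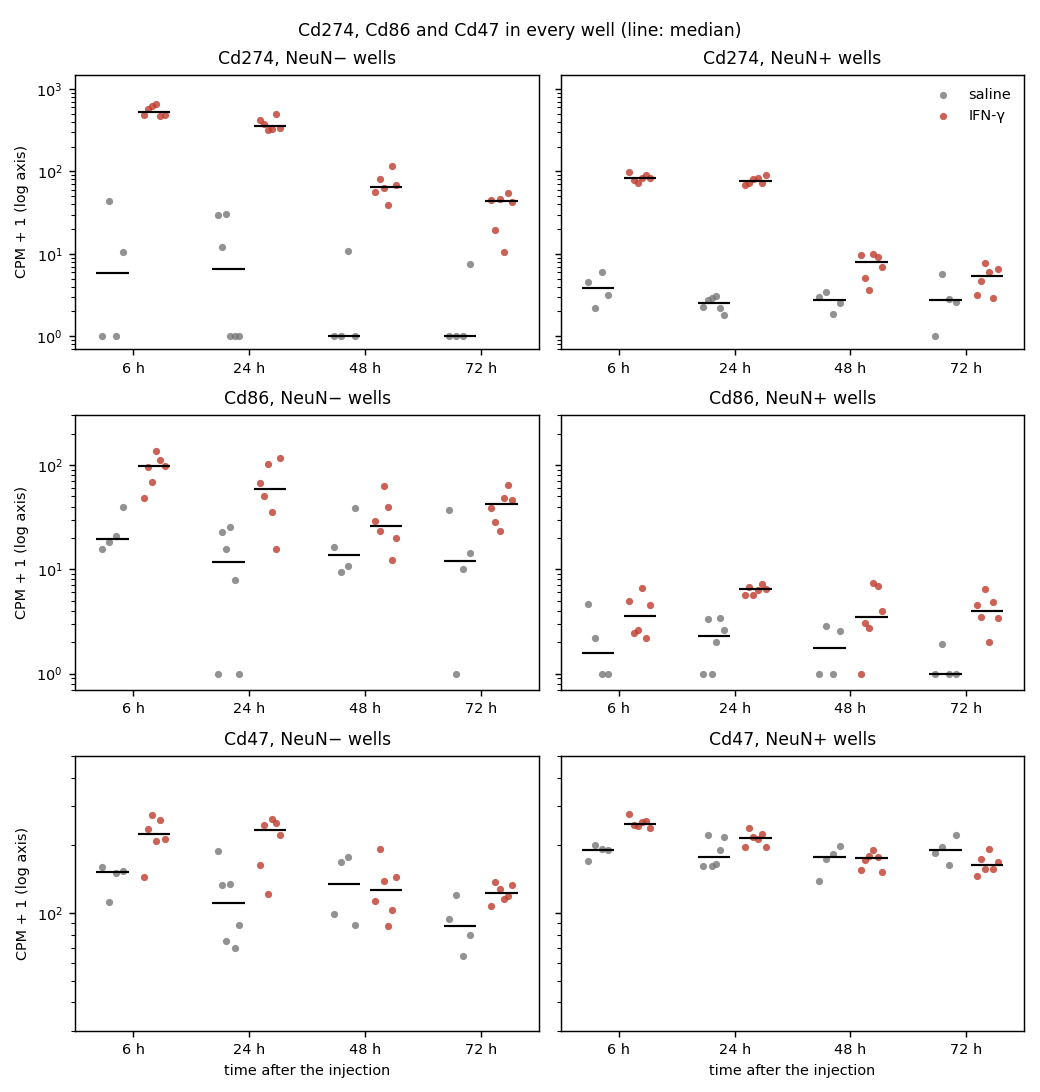
Level (CPM + 1) of Cd274, Cd86 and Cd47 (rows, log axis) in every NeuN- (left) and NeuN+ (right) well by hours after injection, 4 to 6 wells a group, with the median of each group as a line. For Cd274 in NeuN- wells the IFN-γ medians run 529, 358, 64.5 and 42.4 CPM with no overlap with saline, whereas in NeuN+ wells they run 82.2, 74.8, 7.04 and 4.34 CPM and the groups overlap at 72 h.

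The drop in Cd274 between 24 and 48 h was tested directly. In NeuN+ wells the effect of IFN-γ was smaller at 48 h than at 24 h by 3.83 on the log2 scale (SE 0.80, edgeR adjusted p = 0.0027), a call that 0.329% of genes shared. In NeuN- wells the same contrast was -0.60 with an SE of 5.79, and it was not called (0.951% of genes were called lower). The NeuN- saline wells held 5 Cd274 counts at 24 h and 1 at 48 h, and no size of the drop is read from that fit. Within the IFN-γ wells alone, mean log2(CPM + 1) changed by -0.52 from 6 to 24 h (p = 0.00866), by -2.49 from 24 to 48 h (p = 0.00216) and by -1.09 from 48 to 72 h (p = 0.0195) in NeuN- wells, by exact permutation tests of 6 against 6 wells. In NeuN+ wells the steps were -0.12 (p = 0.210), -3.47 (p = 0.00216) and -0.52 (p = 0.152) by the same exact test.

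The level of Cd274 in IFN-γ wells was lower in NeuN+ than in NeuN- wells at each time: the pooled ratio of NeuN+ to NeuN- was 0.146 (0.129 to 0.166), 0.199 (0.172 to 0.229), 0.0937 (0.0599 to 0.146) and 0.108 (0.0630 to 0.186) from 6 to 72 h. The fold over saline was not shown to differ between fractions. The interaction of fraction and treatment (NeuN+ less NeuN-) was -0.67 (SE 0.95) at 6 h, 0.26 (SE 0.49) at 24 h, -3.22 (SE 1.26, edgeR adjusted p = 0.27) at 48 h and -3.24 (SE 1.33, adjusted p = 0.27) at 72 h, none called, where 1.59%, 2.25%, 0.0482% and 0.0934% of genes were called lower in NeuN+ wells. Oligodendrocyte markers were also counted in NeuN+ wells, with group medians of the summed list between 278 and 912 CPM, where NeuN- wells had 3900 to 11315 CPM. The microglia list had medians of 156 to 272 CPM in NeuN+ and 880 to 2031 CPM in NeuN- wells. In NeuN- wells the oligodendrocyte list moved with treatment at early times, from 10609 to 6308 CPM at 6 h and from 10333 to 3900 CPM at 24 h, and the astrocyte list went from 1421 to 3716 CPM at 24 h. The part of these shifts in the Cd274 values was not tested.

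Single nuclei at 48 h placed Cd274 mainly in glia. In the oligodendrocyte class, the nuclei of myelinating cells, no Cd274 UMI was seen among 694527 UMIs of 191 nuclei of the saline mouse, which allows a level of up to 4.32 CPM by a count of 3 (5.31 CPM by the upper exact Poisson bound). IFN-γ mouse 1 had 105 CPM (95% exact Poisson interval 93.3 to 118) and IFN-γ mouse 2 had 119 CPM (102 to 138). These levels were at least 24.3-fold and at least 27.6-fold higher than the saline limit. A Cd274 UMI was seen in 149 of 744 nuclei (20.03%, exact binomial interval 17.2 to 23.1%) and in 77 of 306 nuclei (25.2%, 20.4 to 30.4%), with median depths of 3446 and 4202 UMIs, against 0 of 191 saline nuclei (a share of up to 1.57%) at a median of 3383 UMIs. For comparison, 2.18 to 4.15% of GABA neuron nuclei held a Cd274 UMI at median depths of 16166 to 18835 UMIs. The share was 2.92 to 3.86% of glutamatergic neuron nuclei. It was 3.03% of dopamine neuron nuclei in the saline mouse and 9.02 and 8.51% in the IFN-γ mice. Intervals cover counting error only, and with 1 saline mouse the spread between mice rests on the 2 IFN-γ mice. On sums per mouse, edgeR called Cd274 higher in oligodendrocytes (log2 fold change beyond 3 in both mice and adjusted p = 2.4e-29), the only member called in any class, beside 0.617% of 12806 genes tested. No fold is read from that fit because the saline mouse was at 0.

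Within the oligodendrocyte class Cd274 differed between clusters. Cluster 0, led by the interferon-induced genes Gbp2, Tgtp2 and Iigp1, held 362 and 151 nuclei of the IFN-γ mice and none of the saline mouse, with 192 and 185 CPM of Cd274. Cluster 1 held 82 saline nuclei without a Cd274 UMI and, in the IFN-γ mice, 27.3 CPM (18.3 to 39.2) and 65.5 CPM (47.8 to 87.7). Cluster 5 held 109 saline nuclei without a UMI, 9.28 CPM (3 UMIs) in IFN-γ mouse 1 and 0 in IFN-γ mouse 2. The clusters were built from 2000 variable genes, with the 6 genes left out, so this is a description of where the UMIs lay. Of the 149 positive nuclei of IFN-γ mouse 1, 81 held 1 UMI, 35 held 2 and 33 held 3 or more, up to 8, and of the 77 of IFN-γ mouse 2, 39, 19 and 19, up to 11.

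**Figure D2:**
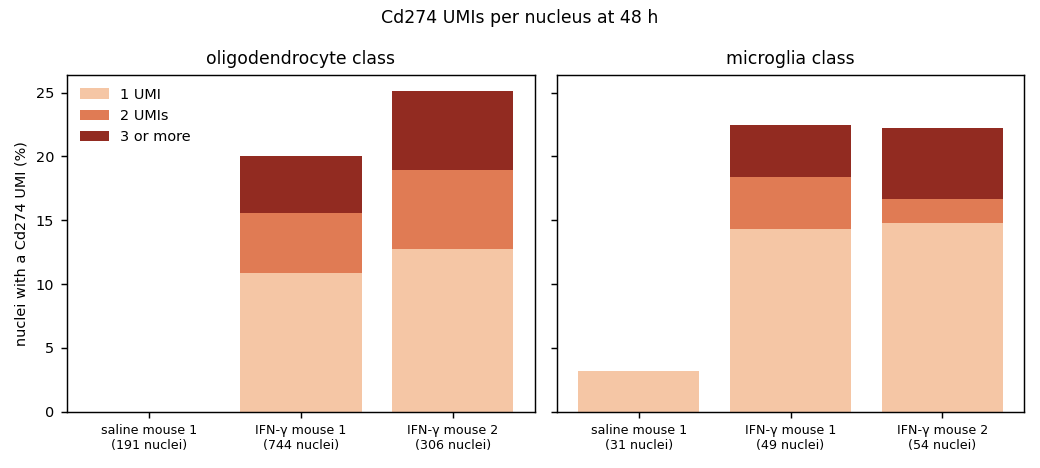
Share of nuclei (percent) with 1, 2 or 3 or more Cd274 UMIs in the oligodendrocyte and microglia classes, as stacked bars for the saline mouse and the 2 IFN-γ mice at 48 h. The oligodendrocyte bars reach 0, 20.03 and 25.2% and the microglia bars 3.23, 22.4 and 22.2%.

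In the microglia class Cd274 stood at 11.9 CPM in the saline mouse (1 UMI, 31 nuclei), 102 CPM in IFN-γ mouse 1 (20 UMIs, 62.4 to 158, 49 nuclei) and 176 CPM in IFN-γ mouse 2 (41 UMIs, 127 to 239, 54 nuclei), and it did not pass the test (edgeR adjusted p = 0.027). A single nucleus of IFN-γ mouse 2 held 25 of the 41 UMIs. It held no UMI of the microglia markers P2ry12 and Tmem119, 1 each of Csf1r and Cx3cr1, 6 of C1qa and 5 of C1qb, which microglia and macrophages share, and 1 each of Ms4a7, Ly6c2 and Itgax, genes of macrophages, monocytes and dendritic cells, together with 14 Cd40 and 6 Cd86 UMIs. Without it the level in that mouse was 70.4 CPM (16 UMIs). A finer clustering divided the class: 31, 36 and 31 nuclei of the saline mouse and the IFN-γ mice kept the microglia name, and 0, 13 and 23 nuclei formed an unnamed cluster led by Ccr2. Under the kept name Cd274 stood at 112 CPM in IFN-γ mouse 1 (17 UMIs, 65.5 to 180.1) and at 34.5 CPM in IFN-γ mouse 2 (5 UMIs, 11.2 to 80.6). The class also changed in its macrophage and monocyte markers: edgeR called Ccr2 higher (adjusted p = 7.5e-06) and Mrc1 lower (adjusted p = 2.9e-08), while the summed list of border macrophage, monocyte and dendritic cell markers stood at 941, 465 and 977 CPM and the T cell list at 0, 10.2 and 25.8 CPM. Their part in the result was not tested.

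Astrocytes held 0 Cd274 UMIs in 21 saline nuclei (a level of up to 27.5 CPM by a count of 3), 26.3 CPM (15.3 to 42.1) in IFN-γ mouse 1 and 51.6 CPM (26.6 to 90.1) in IFN-γ mouse 2 (edgeR adjusted p = 0.47), so a difference in mouse 1 was not detectable at this depth. Dopamine neurons held 1.27, 4.94 and 3.72 CPM, a ratio of both IFN-γ mice to saline of 3.47 (1.27 to 11.8) that did not pass the test (adjusted p = 1.0). GABA neurons held 2.12, 1.35 and 2.41 CPM and glutamatergic (VGLUT2) neurons 2.09, 2.24 and 1.89 CPM, with ratios of 0.824 (0.403 to 1.78) and 1.02 (0.489 to 2.33). Oligodendrocyte markers summed to 45.3, 52.5 and 60.5 CPM in the dopamine neuron class. They summed to 76.3, 84.7 and 91.0 CPM in GABA neurons and to 74.3, 78.3 and 90.6 CPM in VGLUT2 neurons. Their part in the Cd274 values of these classes was not tested. Single nuclei were profiled at 48 h only, and not at 6 or 24 h, when NeuN+ wells held most Cd274.

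Cd86, which encodes a ligand of CD28 and CTLA-4, was a gene of the microglia class. Saline nuclei of that class held 381 CPM (261 to 538, 17 of 31 nuclei with a UMI), whereas no other named class of any mouse exceeded 1.55 CPM. The class as a whole showed no detectable change at 48 h. The IFN-γ mice held 475 CPM (383 to 582, 31 of 49 nuclei) and 439 CPM (358 to 533, 35 of 54 nuclei). Their ratio to saline was 1.195 (0.819 to 1.80), with an edgeR adjusted p of 0.82. With the finer clustering, which set apart the unnamed cluster led by Ccr2, the same mice held more, 589 and 615 CPM in 36 and 31 nuclei. The saline mouse again had 31 nuclei under the microglia name, beside its 381 CPM in the class. That larger difference was not tested.

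In NeuN- wells Cd86 rose at 6 h. The saline wells held 14.5, 17.1, 19.99 and 38.2 CPM and the IFN-γ wells 47.7 to 136 with a median of 96.2 CPM, without overlap, which 2.19% of genes with a count shared. The log2 fold change was 2.08 (SE 0.42, edgeR adjusted p = 1.3e-04). The call stands near the filter on low counts: without any of IFN-γ wells 2, 4, 5 or 6, Cd86 was no longer among the genes tested. At 24 h the saline wells held 0 to 24.2 with a median of 10.8 CPM and the IFN-γ wells 14.7 to 115 with a median of 58.3 CPM, with overlap (difference of mean log2(CPM + 1) 3.04, p = 0.0108, exact permutation test). At 48 h the ranges were 8.42 to 37.5 in saline and 11.4 to 62.1 CPM in IFN-γ wells (0.78, p = 0.190, exact permutation test), and at 72 h 0 to 35.9 and 22.3 to 63.4 CPM (2.21, p = 0.0286, exact permutation test). The pooled ratio was 4.53 (2.33 to 9.85), 5.43 (2.35 to 15.4), 2.02 (0.865 to 5.24) and 2.71 (1.23 to 6.78) from 6 to 72 h. The microglia list went the other way at 6 h, from a median of 1649 CPM in saline to 880 CPM in IFN-γ wells. It stood at 1478 and 1549 CPM at 24 h, 1616 and 1368 CPM at 48 h and 1319 and 2031 CPM at 72 h. The study describes some microglial marker genes, among them Csf1r, Siglech and Dock8 of this list, as transiently lowered by IFN-γ at 6 h. The list is therefore not a measure of microglia numbers alone, and its part in the Cd86 values was not tested.

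In NeuN+ wells Cd86 counts were few, 18 in all 18 saline wells and 99 in all 24 IFN-γ wells. At 24 h the saline wells held 0 to 2.40 and the IFN-γ wells 4.69 to 6.22 CPM, without overlap (1.68, p = 0.00216, exact permutation test, the smallest that 6 against 6 wells allow). At 72 h the saline wells held 0, 0.925, 0 and 0 CPM and the IFN-γ wells 0.999 to 5.52 CPM, again without overlap (1.72, p = 0.00952, exact permutation test), as for 1.47% and 2.11% of genes with a count. At 6 and 48 h the groups overlapped, with differences of 1.01 (p = 0.0857) and 1.08 (p = 0.114) by the same exact test. The microglia list in these wells was 157 and 176 CPM at 6 h, 180 and 272 CPM at 24 h, 156 and 242 CPM at 48 h and 190 and 243 CPM at 72 h in saline and IFN-γ wells, so its median was higher in IFN-γ wells at each time, and its part in the Cd86 values was not tested. In single nuclei of the saline mouse that list stood at 148 to 192 CPM in the neuron classes.

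Cd40, Cd80 and Pdcd1lg2 were counted too rarely for the test across genes at any time. Cd40 was not counted in any of the 18 NeuN- saline wells. In IFN-γ wells at 6 h the counts were 0, 0, 2, 3, 2 and 1 (10.96 CPM pooled, 4.73 to 21.6), at least 1.68-fold higher than the limit of 3 counts over the saline wells, but with p = 0.143 by the exact permutation test. There were 2 counts at 24 h and none at 48 or 72 h. In NeuN+ wells 11 counts in saline and 14 in IFN-γ wells gave a ratio of 0.864 (0.365 to 2.10). In nuclei Cd40 had 58 UMIs, of which 25 lay in the microglia class, 15 in GABA neurons and 11 in VGLUT2 neurons. The microglia class of the IFN-γ mice held 35.7 CPM (14.4 to 73.6, 7 UMIs in 5 nuclei) and 77.5 CPM (45.9 to 122, 18 UMIs in 5 nuclei), against 0 UMIs in the saline mouse, where a count of 3 allows up to 35.7 CPM (edgeR adjusted p = 0.11). Of the 18 UMIs 14 came from the single Cd274-rich nucleus, and without it the level was 17.6 CPM. GABA neurons held 1.59, 0.518 and 0.172 CPM.

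Cd80, which shares its receptors with Cd86, gave 4 counts in NeuN- saline wells and 12 in NeuN- IFN-γ wells, a ratio of 1.90 (0.576 to 8.09). At 6 h none fell in the 4 saline wells and 6 in the IFN-γ wells, in 3 of 6 wells (p = 0.333, exact permutation test). In NeuN+ wells there were 10 and 20 counts, a ratio of 1.36 (0.607 to 3.25). The microglia class held 23.8 CPM (2 UMIs), 25.5 CPM (5 UMIs) and 47.3 CPM (11 UMIs) in the saline and the 2 IFN-γ mice, and GABA neurons 0.883, 1.24 and 2.06 CPM, with no call in either class. These counts do not show a change in Cd80, and they are too few to show its absence.

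Pdcd1lg2, which encodes the other PD-1 ligand, was hardly counted. In NeuN- wells it had 1 count in saline and 1 in IFN-γ wells, where Cd274 had 13 and 852. In NeuN+ wells it had 5 counts in 4 of 18 saline wells and 21 in 14 of 24 IFN-γ wells, a ratio of 2.85 (1.05 to 9.68). At 6 h the 4 saline wells held none and the 6 IFN-γ wells 3, 0, 4, 1, 2 and 1 counts, at least 1.49-fold higher than the limit (difference 1.24, p = 0.0476, exact permutation test). In nuclei it had 22 UMIs in all, none of them in the microglia or astrocyte class and 1 in oligodendrocytes. Pdcd1lg2 overlaps an antisense gene, A930007I19Rik, which had 766 counts in the wells, and reads of the pair cannot be told apart without a strand setting, so its values are uncertain.

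**Figure D3:**
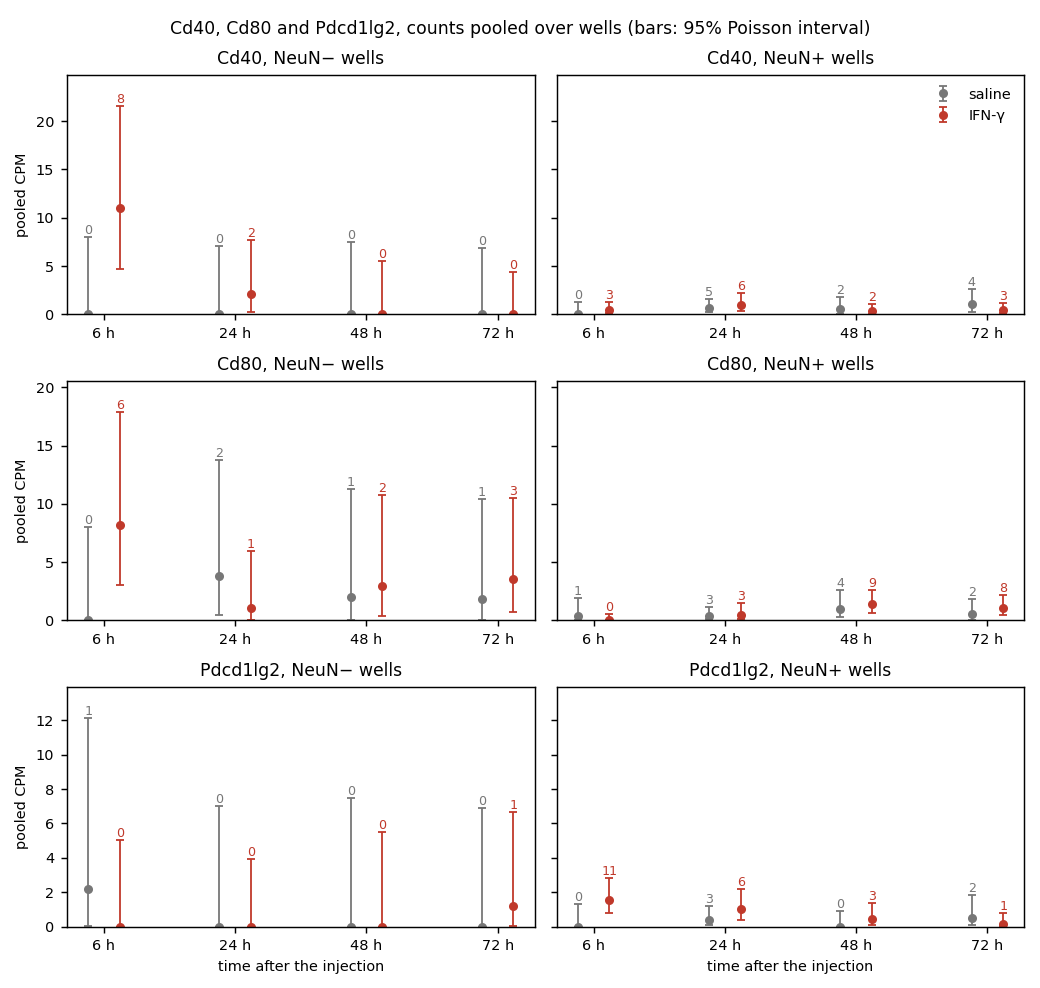
Pooled level (CPM) of Cd40, Cd80 and Pdcd1lg2 in saline and IFN-γ wells by hours after injection and fraction, with 95% exact Poisson intervals and the number of counts above each bar. The 8 Cd40 counts of NeuN- IFN-γ wells at 6 h face 0 in saline, as do the 11 Pdcd1lg2 counts of NeuN+ IFN-γ wells at 6 h. The intervals of saline and IFN-γ wells overlap in every pair, these included.

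Cd47 was counted in all 84 wells and in every cell class, and its shifts were small. In NeuN- wells at 6 h the saline wells held 159.6, 111, 149.9 and 153 CPM and the IFN-γ wells 143 to 272 with a median of 224 CPM, a log2 fold change of 0.66 (SE 0.20, edgeR adjusted p = 0.0090). At 24 h saline wells held 68.6 to 188 with a median of 110.1 CPM and IFN-γ wells 121 to 261 with a median of 234 CPM (0.86, SE 0.24, adjusted p = 0.0042). These groups overlapped, and neither passed the fold limit. They are the wells with the lower oligodendrocyte lists given above, whose part in the Cd47 values was not tested. At 48 and 72 h the log2 fold changes were 0.00 (SE 0.25) and 0.42 (SE 0.25, adjusted p = 0.44). Cd47 was the only member tested at these times and was not called, beside 1.23% and 0.754% of genes called higher. Averaged over the 4 times the difference was 0.51 (SE 0.12, adjusted p = 7.2e-04), again under the fold limit.

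In NeuN+ wells Cd47 had the counts to show small differences. At 6 h the saline wells held 169.6, 200.5, 192 and 189 CPM and the IFN-γ wells 237 to 276 with a median of 249 CPM, without overlap, as for 2.81% of genes with a count. The log2 fold change was 0.35 (SE 0.07, edgeR adjusted p = 0.0012). It was 0.24 (SE 0.08, adjusted p = 0.051) at 24 h, 0.00 (SE 0.08) at 48 h and -0.28 (SE 0.08, adjusted p = 0.030) at 72 h, when saline wells held 185, 196, 164 and 222 CPM and IFN-γ wells 145 to 193 CPM. The size of each is below the fold limit. By fold limit and adjusted p together, 0.15% and 0.351% of genes were called higher at 48 and 72 h, and the shares called lower are not reported here. At 24 h the effect was lower in NeuN+ than in NeuN- wells by 0.73 (SE 0.24, adjusted p = 0.033), which did not pass the limit of 0.01. In saline wells Cd47 was higher in NeuN+ than in NeuN- wells by 0.56 on the log2 scale (SE 0.10, edgeR adjusted p = 2.5e-06). Cd47 was thus past the limit of 0.5 used between fractions, where 32% of genes tested were called higher. It was the only member that passed the filter on low counts in that comparison.

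In nuclei Cd47 stood at 99.3 CPM (77.3 to 126) in saline oligodendrocytes and at 97.8 (86.3 to 110.3) and 116 CPM (98.8 to 135) in those of the IFN-γ mice. The microglia class held 107 (49.0 to 203), 189 (133 to 260.4) and 271 CPM (208 to 347), a ratio of 2.18 (1.10 to 4.90) that did not pass the test (edgeR adjusted p = 0.28). Neuron classes held 79.5 to 104 CPM over all mice, and astrocytes 73.3, 138 and 81.6 CPM. No class had a call for Cd47, where 0.783% of genes were called higher in microglia, 0.0844% in astrocytes, 0.0316% in dopamine neurons, 0.0216% in GABA neurons and 0.0428% in VGLUT2 neurons.

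**Figure D4:**
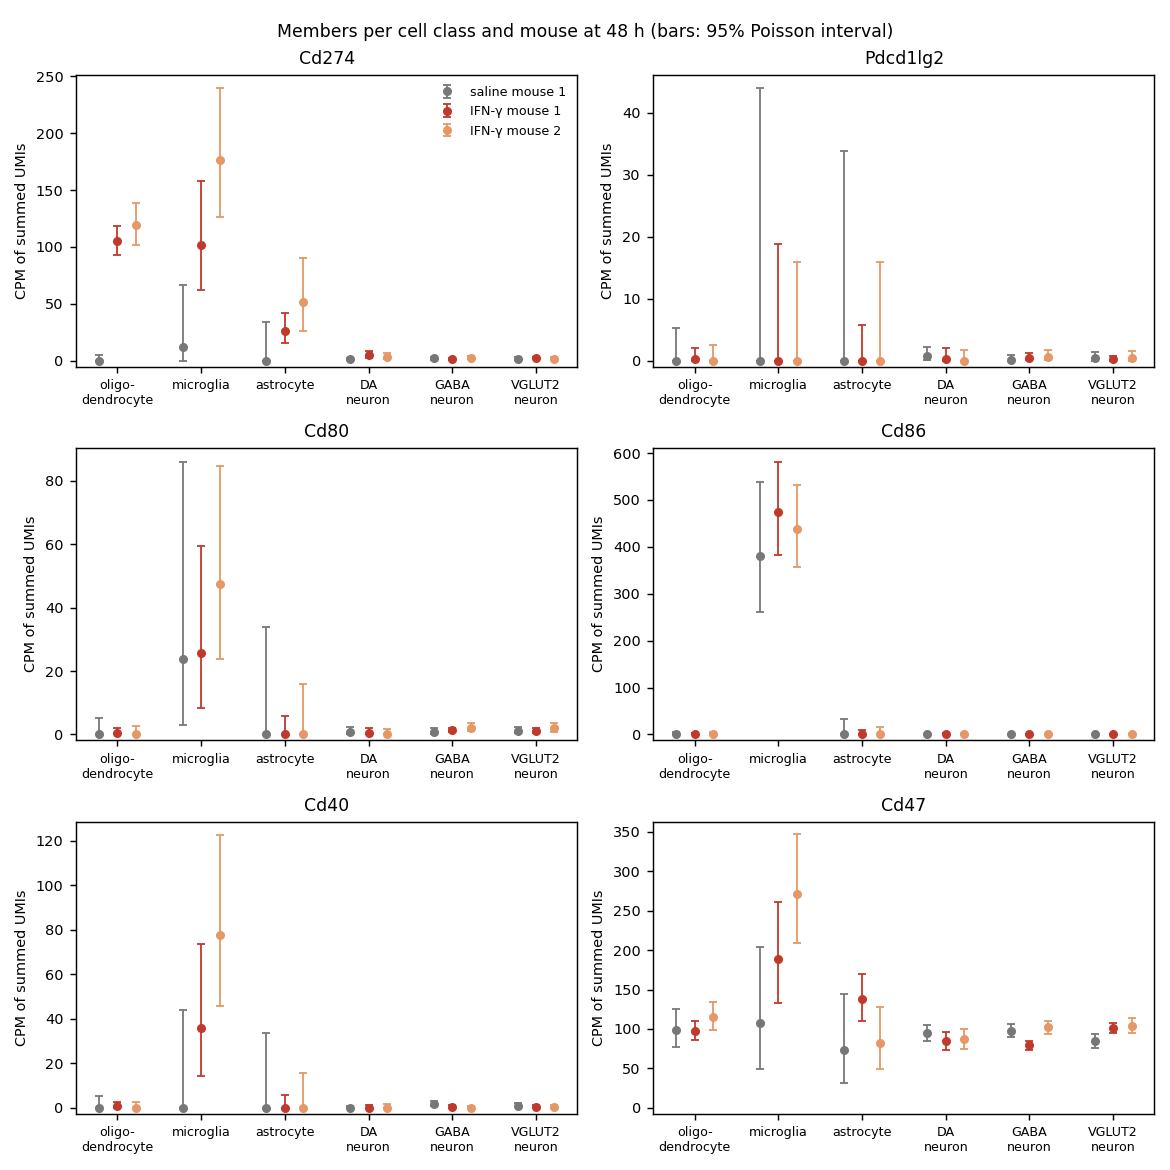
Level (CPM) of the 6 genes in 6 classes of nuclei for the saline mouse and the 2 IFN-γ mice at 48 h, with 95% exact Poisson intervals. Cd274 is at 0 in saline oligodendrocytes and at 105 and 119 CPM in the IFN-γ mice, Cd86 lies between 381 and 475 CPM in the microglia class and near 0 in the others, and Cd47 is present in every class.

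Genes that act with these molecules were counted from lists. Among the interferon signalling genes that act on PD-L1, Irf1, Stat3 and Jak2 were called higher in NeuN- wells at 6 h by edgeR, with log2 fold changes of 6.88, 2.82 and 1.87. At 24 h Irf1 was called at 6.25 and Stat3 at 2.31, while Jak2 stood at 0.84 and was not called. In NeuN+ wells Irf1 and Stat3 were called at 6 h (6.24 and 2.64) and at 24 h (5.94 and 2.23). At 48 and 72 h no gene of this list was called in either fraction, of 2 tested in NeuN- and 5 in NeuN+ wells. Irf1, a transcription factor, had medians of 397, 205, 25.4 and 18.5 CPM in NeuN- IFN-γ wells from 6 to 72 h, against 0 in saline at each time. Jak2 was the only one of 6 neighbours of Cd274 on chromosome 19 that was called. That call was at 6 h in NeuN- wells, where 7.86% of genes tested were called higher. Counts of the neighbours over all wells went down to 6, too few to be tested, so no lack of response is read for the others. The effect on Jak2 was lower in NeuN+ wells by 1.31 (edgeR adjusted p = 1.7e-07).

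The rest of the co-signalling system was sparse in these nuclei. Of 20 other ligands none had the counts to be tested in NeuN- wells and 2 were tested in NeuN+ wells, Cd200, an inhibitory ligand of neurons, and Nectin3, an adhesion molecule (named because they are the whole of the count). Neither was called for IFN-γ at any time, and both were higher in NeuN+ than in NeuN- saline wells, by 1.98 and 1.06 on the log2 scale. Of 18 receptors, none was tested in NeuN- and 1 or 2 in NeuN+ wells, with no call. The receptors PD-1, CD28 and CTLA-4 are molecules of T cells, and the T cell list ran over single wells from 0 to 59.9 CPM in NeuN- and 24.3 to 81.9 CPM in NeuN+ wells. In single nuclei of the saline mouse that list stood at 30.9, 26.0 and 26.3 CPM in dopamine, GABA and VGLUT2 neurons. Its level is therefore not a measure of T cells alone.

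Over the 16 groups of fraction, treatment and time, the profile of Cd274 (log2 of mean CPM + 1) was most like those of Gbp7, an interferon-induced guanylate-binding protein (Pearson r = 0.980), Stat2, a transducer of interferon signals (r = 0.9751), and Ifit3, an interferon-induced gene (r = 0.974), among 10278 genes. Cd86 was most like Gm8995, Lap3, an aminopeptidase, and Sat1, an enzyme of polyamine breakdown (r = 0.978, 0.976 and 0.973). Cd47 was most like Acsl4, which activates long fatty acids, Ccdc25 and Ndufaf4 (r = 0.941, 0.937 and 0.928). The groups share wells, depth and fraction differences, so these values describe likeness only.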

How the data were processed

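Nuclei of mouse ventral midbrain were sequenced as sorted wells (84) and as single nuclei (3 mice). The authors aligned reads with STAR to GRCm38 and deposited whole-number UMI counts per gene for both, not normalized, with low-quality nuclei, ambiguous clusters and doublets already removed. The build and aligner are those of the submitters' processing notes, and the strand setting of the counting is not given in the sources used here. Treatment and time came from GEO's labels and the sorted fraction from the study's well list, matched by barcode. The 6 genes and all gene lists were chosen with earlier results of these data known. No column of values was left unused (0).

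Counts were tested with edgeR 4.0.16 in R 4.3.3 (filterByExpr, TMM, quasi-likelihood) within each fraction and time, over the 4 times, between fractions and between times, with Benjamini-Hochberg adjustment over all genes tested. Genes were called past a log2 fold change of 1 (0.5 between fractions) when the adjusted p was below 0.01. Single values were compared by exact permutation of log2(CPM + 1) over wells with scipy 1.17.1. Nuclei were clustered anew (leidenalg 0.10.2) and named from markers. Of 1999 nuclei with a class in the study's list as held here, 1775 were named here and the rest lay in unnamed clusters. Of the 1775, 1763 were named as in that list, and the few others were given a different neuron class. UMIs were summed per mouse and class, where both IFN-γ mice had to differ from saline by more than 3 on the log2 scale. Floors are 3 counts. Besides the 6 genes, the text names listed co-signalling or regulatory genes called at a single time, the 3 genes most alike in profile and marker genes, and results on some listed genes are not reported here. Scripts were tested on simulated data. Alternatives were DESeq2 1.42.0, other normalizations, filters, samples and clusterings. Promoter windows were from RefSeq (4 of 6 genes matched). No 2 wells held identical values.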

Additional observations from a re-analysis of the deposited data

Results flagged for a closer look

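Cd274 in NeuN- saline wells had 1 well at 9.83 CPM at 48 h and 1 at 6.61 CPM at 72 h while the other 3 wells of each group were at 0, and each is a single count. Cd86 in NeuN+ saline wells at 72 h had 1 well at 0.925 CPM, also a single count, with the others at 0. Chance marks about 1 in 20 groups in this way where values are continuous, and single counts among zeros, as here, are not such values (48 groups of wells were examined). The effect of IFN-γ on Cd274 in NeuN+ wells differed between 48 and 24 h by -3.83 on the log2 scale (edgeR adjusted p = 0.0027).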

How the results depend on the processing

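No paired analysis was possible because the labels give the wells no shared animal or batch number. The direction and call of Cd274 at 6 and 24 h were kept in both fractions under every alternative tried, with leave-one-out ranges of 4.78 to 7.11 and 4.63 to 5.56 in NeuN- and of 4.47 to 5.29 and 5.51 to 5.72 in NeuN+ wells. The upper value at 6 h in NeuN- wells came without the saline well of 42.8 CPM.

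The number of the 6 genes called in NeuN- wells at 6 h (2) was 1 with saline wells of all times and 1 to 2 without a well. At 24 h (1) it was 3 without the filter, 2 in 1 fit of all wells, 2 with DESeq2 and 1 to 2 without a well. At 48 h (0) it was 1 without the filter, in 1 fit and with DESeq2, and at 72 h (0) it was 1 without the filter and in 1 fit. Over the 4 times (1 in each fraction) it was 2 without the filter and with DESeq2 in both fractions. Between fractions in saline (1) it was 2 without the filter and 3 with DESeq2, and for the change from 24 to 48 h in NeuN- wells (0) it was 1 in IFN-γ wells alone, where Cd274 fell by 2.38. Without the filter more of the 6 genes are tested. For the other differences the cause was not tested.

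Cd47 in NeuN- wells at 24 h reached 1.03 without the filter (adjusted p = 7.4e-04) and ran from 0.66 to 1.02 without a well. Near 0, signs turned. Cd47 in NeuN- wells at 48 h was -0.056 without the filter, -0.014 in 1 fit and -0.022 with DESeq2, and -0.21 to 0.16 without a well. In NeuN+ wells at 48 h it was -0.11 with saline of all times and -0.059 to 0.070 without a well. In IFN-γ wells alone, the change from 6 to 24 h was -0.13 for Cd47 and -0.65 for Cd86 in NeuN- and -0.10 for Cd274 in NeuN+ wells, and that of Cd47 from 48 to 72 h in NeuN- wells was -0.10. With NeuN+ wells thinned, the interaction at 24 h was -0.19 for Cd274, and at 48 h that of Cd47 was 0.062 thinned and 0.063 without the filter.

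In the microglia class of IFN-γ mouse 2, Cd274 fell to 70.4 CPM and Cd40 to 17.6 CPM without the nucleus richest in Cd274, an alternative chosen after seeing the data. Of 437 alternative fold changes in wells, 414 kept direction and call, 3 passed the limit and 20 turned in sign. Refits in which a gene fell below the filter are not among the 437. Cd86 in NeuN- wells at 6 h, for example, has only 6 of 10 fits without a well among them. Low counts of NeuN- wells limit Cd40, Cd80 and Pdcd1lg2.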
